A study of Mus musculus with 80 samples.

Results

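The change of the acute radiation response of mouse whole blood between day 3 and day 5 was described here, as (4.1 Gy minus sham on day 5) minus (2.8 Gy minus sham on day 3). It used 21 of the 80 libraries of the study, chosen by their labels: 6 shams and 3 irradiated libraries of day 3, and 6 shams and 6 irradiated libraries of day 5. All came from female C57BL/6 mice, for which the labels name no engineered allele and no drug. Irradiated mice received 2.8 Gy (bled on day 3) or 4.1 Gy (bled on day 5) acutely at 0.73 Gy/min, and shams received 0 Gy and were bled on the same days. Dose and day therefore changed together and cannot be told apart, and each day had its own animals. The study also followed a falling dose rate that imitates internal 137Cs (VarDR), in which the cumulative dose was likewise 2.8 Gy on day 3 and 4.1 Gy on day 5. The 24 VarDR libraries of those days serve below as a comparison.

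Blood drawn for RNA holds mature red cells without a nucleus, reticulocytes (young red cells that still carry messenger RNA), platelets, neutrophils, monocytes and lymphocytes. Reticulocytes leave the bone marrow or spleen, lose their RNA within days and must be replaced by the division and maturation of radiosensitive erythroid progenitors. B cells are among the most radiosensitive blood cells, and their receptor consists of an immunoglobulin and the signalling chains Cd79a and Cd79b. In bulk blood, fewer cells of a type and less RNA per cell cannot be told apart.

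Levels are the authors' normalized read counts after rescaling of all columns to equal medians of ratios, and they are not divided by gene length. Differences are on the scale of log2(rescaled count + 1), each given as estimate ± standard error from limma, and the p-values were adjusted over the 21124 genes tested. A gene was called at an adjusted p under 0.05. Directions against sham are relative to the typical gene: with the values as deposited, the median of all genes was 1.2005 on day 3 and 0.88 on day 5, against 0.30 and 0.02 after rescaling. Each library has its own title and was drawn after euthanasia, and the p-values measure the spread between these libraries. The deposited columns summed to 23.2 to 37.9, in units of 1000000 normalized counts, with 16684 to 27535 genes above 0. Haemoglobin RNA had been cleared before sequencing, so the haemoglobin levels are those of the RNA that remained.

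Some irradiated libraries stood apart by liver transcripts. The 25 hepatocyte genes together held 2.69, 3.00 and 0.185% of the signal in the 3 irradiated libraries of day 3 (all 25 above 0 in each), and 0.0113 to 2.64% in those of day 5 (22 to 25 above 0). The shams held 0.00133 to 0.135% on day 3 and 0.00327 to 0.121% on day 5. Of the hepatocyte genes, 23 were higher than sham on day 3 and 0 on day 5, where 11.8% and 9.75% of all genes were called higher. The part of these libraries in other results was not tested beyond the values without them given below. Of the 10 lung cell genes, whose summed signal was at most 0.00981% of a library, the surfactant gene Sftpc was at 0 in both sham groups and in the irradiated group of day 3. Defining genes of whole blood (Hba-a1, Pf4, Cd79a, S100a8 and Cd3e) were present in all 21 libraries.

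Several erythroid sequences are shown because their transcripts had some of the greatest changes. The microRNA miR-451a is made from an erythroid hairpin that is cut by Argonaute 2 rather than by Dicer. Its mature sequence (RefSeq, GRCm38.p6, chr11:78073186-78073207, plus strand) is given with the seed, bases 2 to 8, in capitals, and its 72-base hairpin (chr11:78073170-78073241) with the mature arm in capitals.
miR-451a mature: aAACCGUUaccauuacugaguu
Mir451a hairpin: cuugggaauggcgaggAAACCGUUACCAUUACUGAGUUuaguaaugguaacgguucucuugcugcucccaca

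The 250 bases before the RefSeq start site of 4 genes follow, 5′ to 3′ on the strand of the gene (GRCm38.p6). They are those with the largest difference between days in the haemoglobin, haem synthesis, membrane and late reticulocyte lists. The motifs searched on both strands were AGATAA, bound by GATA factors, and CCACACCC, bound by KLF1, both erythroid transcription factors. Capitals mark a match.
Hbb-bt, chr7:103813924-103814173, minus strand: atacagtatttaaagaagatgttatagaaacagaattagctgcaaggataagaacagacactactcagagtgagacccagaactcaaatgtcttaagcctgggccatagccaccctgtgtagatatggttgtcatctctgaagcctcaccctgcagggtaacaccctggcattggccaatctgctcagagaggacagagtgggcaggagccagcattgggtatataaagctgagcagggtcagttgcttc
Alas2, chrX:150547167-150547416, plus strand: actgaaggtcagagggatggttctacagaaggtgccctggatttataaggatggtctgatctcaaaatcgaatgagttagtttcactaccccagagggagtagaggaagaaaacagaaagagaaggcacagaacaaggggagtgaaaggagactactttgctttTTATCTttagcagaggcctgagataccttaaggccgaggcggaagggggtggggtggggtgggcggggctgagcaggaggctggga
Trim10, chr17:36869324-36869573, plus strand: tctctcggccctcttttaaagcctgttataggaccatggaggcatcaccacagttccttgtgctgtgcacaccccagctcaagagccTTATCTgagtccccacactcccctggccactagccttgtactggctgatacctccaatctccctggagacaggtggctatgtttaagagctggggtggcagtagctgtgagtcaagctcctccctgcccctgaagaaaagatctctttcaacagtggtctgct
Bpgm, chr6:34476106-34476355, plus strand: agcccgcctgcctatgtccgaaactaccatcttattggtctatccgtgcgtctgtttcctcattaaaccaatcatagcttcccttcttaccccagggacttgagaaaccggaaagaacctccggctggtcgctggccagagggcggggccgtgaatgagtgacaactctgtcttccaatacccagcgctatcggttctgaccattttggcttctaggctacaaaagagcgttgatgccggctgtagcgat

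In the Alas2 and Trim10 windows the reverse complement of AGATAA lay 86 to 81 and 163 to 158 bases before the start site. The Hbb-bt and Bpgm windows held neither string. RefSeq promoters were matched for 36 of the 51 erythroid list members called higher. AGATAA was in 8 of their 46 windows (17.4%), against 9.99% of all 32851 windows of that length. CCACACCC was in 1 window (2.17%), against 3.20% of all windows. These matches are descriptions of the letters and not evidence of binding.

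Of the 21124 genes, 352 (1.67%) had a different acute response on the 2 days, 322 higher on day 5 (1.52%) and 30 lower (0.142%). The median difference of all genes was -0.19. Of the 352 genes, 303 had returned toward the sham level, 297 of them from below and 6 from above, where returned means that the day 3 difference was called and the later change was opposite and left a day 5 difference that was smaller in size and either of the first sign or, on whichever side of sham, not past the threshold. A further 22 genes had kept falling and 3 had kept rising (Dstn, Zbbx and Gm40538), 8 had reversed their sign past the threshold on both days, 14 were called on day 5 and not on day 3, and 2 on neither day. The estimate for day 3 rests on 3 irradiated libraries and enters both the first response and the difference, so an error in it makes a gene look lower first and higher later. Against sham, 4337 genes (20.5%) were called on day 3 and 3982 (18.9%) on day 5. The shams themselves differed between the days in 2 genes (0.00947%), and 1915 had an unadjusted p under 0.05.

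**Figure D1:**
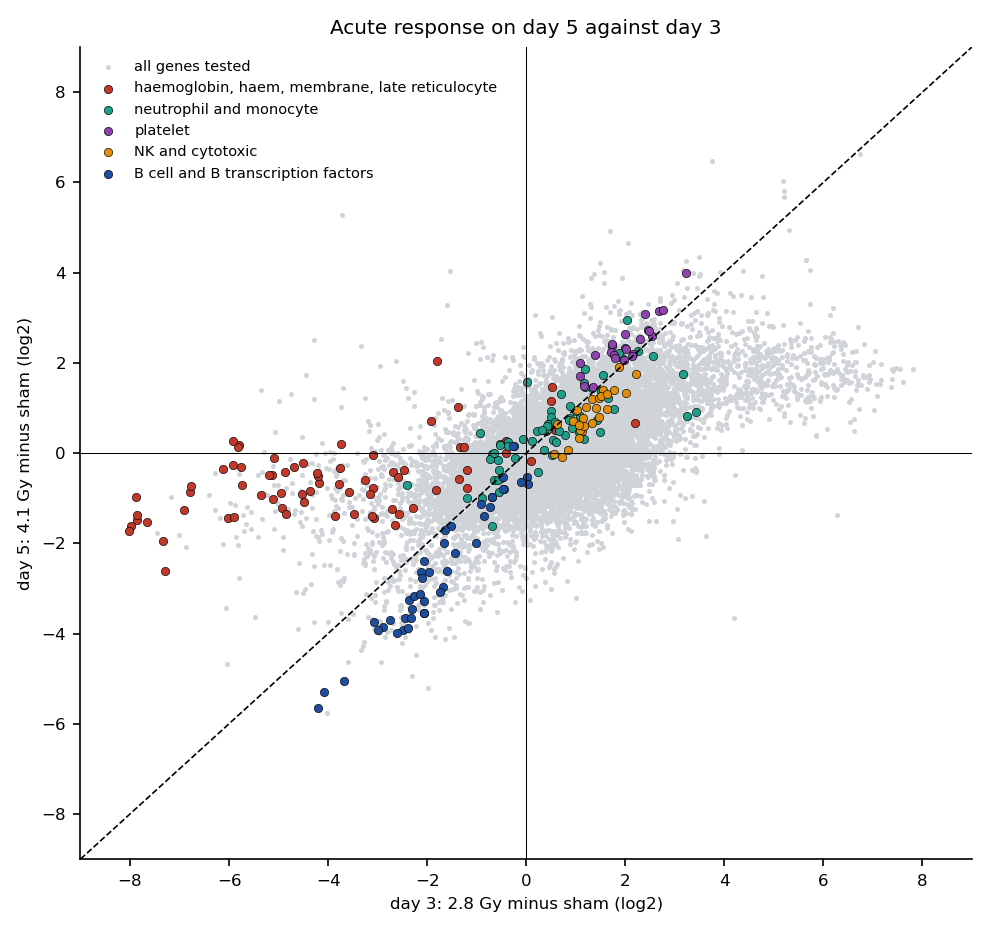
Log2 difference from sham on day 3 (x axis) and day 5 (y axis) for every gene tested, with gene lists in colour and the line of equal responses dashed. Haemoglobin, haem, membrane and late reticulocyte genes (red) mostly lay far to the left and closer to 0 on day 5, platelet genes (purple) lay near the line at 1.08 to 3.23 on day 3, and B cell genes (blue) lay below the line.

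The erythroid transcripts accounted for the clearest return. Of 105 measured erythroid list members, 51 were called higher on day 5 relative to day 3 and 0 lower (48.6% against 1.52% of all genes), with a median difference of 2.09. On day 3, 68 members were lower than sham and 9 higher, where 8.72% of all genes were called lower and 11.8% higher. On day 5, 30 were lower and 13 higher, where 9.1% of all genes were called lower and 9.75% higher. Of the 51, 33 no longer differed past the threshold from sham on day 5, 17 were still lower and 1, Hbb-y, was higher. How far the genes had returned depended on the scale: with the values as deposited the day 5 medians against sham were 0.38 for haem synthesis, 0.68 for membrane and 0.12 for late reticulocyte genes, and -0.48 for haemoglobin, while 7, 6, 15 and 20 genes of the haemoglobin, haem synthesis, membrane and late reticulocyte lists were called higher between the days. The change was present among the irradiated libraries alone, where 49 members were called higher on day 5 and 0 lower (1.54% of all genes were called there, 1.28% higher). In the shams no erythroid member was called between the days, although their median shift was -0.50. Without the 5 libraries of over 0.5% hepatocyte signal, 6 haemoglobin, 5 haem synthesis, 13 membrane and 15 late reticulocyte genes were called higher (7, 6, 16 and 21 with them). That fit keeps 1 irradiated library of day 3, which is assumed to vary like the other groups.

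**Figure D2:**
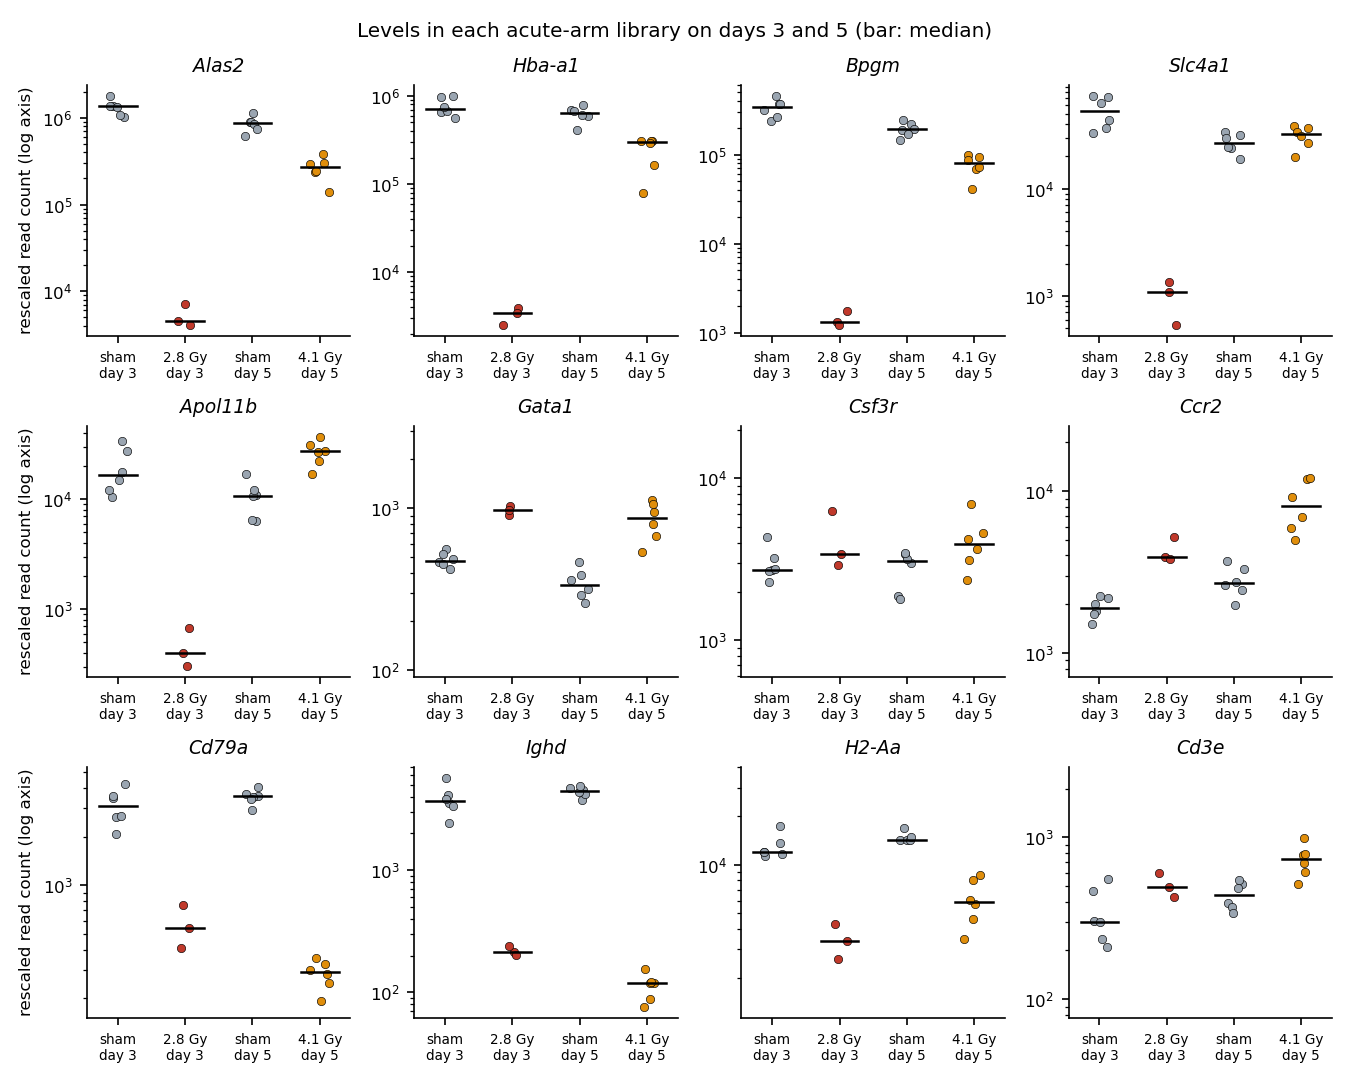
Rescaled read count (log axis) of 12 genes in each acute-arm library, with the sham and irradiated groups of days 3 and 5 on the x axis and a bar at the median. Alas2, Hba-a1, Bpgm, Slc4a1 and Apol11b were lowest in the 3 irradiated libraries of day 3, and Cd79a and Ighd were lowest in the 6 irradiated libraries of day 5.

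Haemoglobin genes encode the globin chains of the oxygen carrier. Of 9 measured, 7 were called higher on day 5 relative to day 3, with a list median of 4.68. The list median against sham was -7.29 on day 3 and -1.44 on day 5. Hba-a1 (alpha chain, chromosome 11, 32283511 to 32284465, GRCm38) was 568475 to 1000099 (median 715649) in the shams of day 3 and 2537, 3478 and 3968 in the irradiated mice. On day 5 it was 412684 to 792179 (median 637006) in shams and 78837 to 311143 (median 299273) in irradiated mice. All irradiated libraries of day 5 thus lay above those of day 3 and below every sham of day 5, the median going from 0.486% to 47% of that of the shams. The change was 6.37 ± 0.64, adjusted p = 8.00e-12. Hbb-bt (adult beta chain, chromosome 7, 103812524 to 103813996) was 56168 to 119072 (median 69609.8) in shams and 262, 326 and 371 in irradiated mice on day 3, and 38847 to 66145 (median 59213) and 10232 to 49753 (median 34026) on day 5. Its irradiated and sham ranges overlapped on day 5. Its difference between days was 6.91 ± 0.70, adjusted p = 1.63e-11, corresponding to 120-fold.

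The other adult chains moved like these, Hba-a2 by 6.13 ± 0.62 and Hbb-bs by 6.37 ± 0.65. Each pair of Hba and Hbb copies is nearly identical in sequence, so the division of reads between the copies is uncertain. The theta chains Hbq1a (4.68 ± 0.55, adjusted p = 1.52e-09) and Hbq1b (4.59 ± 0.55, adjusted p = 2.87e-09) also rose, and Hbq1a was still lower than sham on day 5 (-2.62 ± 0.35, adjusted p = 5.90e-09). Hbb-y, an embryonic beta-like chain named after its values were seen, was 12.9, 13.1 and 14.6 in irradiated mice on day 3 and 74.5 to 158 (median 108) on day 5, against 14.9 to 54.1 (median 24.5) in the shams of day 5. It differed from the adult chains in ending above sham (2.04 ± 0.59, adjusted p = 0.00737), having been uncalled on day 3 (-1.80 ± 0.72, adjusted p = 0.0652). Its change between the days (3.83) lost its call in 2 of the 31 alternatives that could test it, with values of 3.08 to 4.19.

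Haem synthesis joins glycine and succinyl-CoA through Alas2 and ends with the insertion of iron by Fech. Of 15 genes, 6 were called higher and 0 lower (median 1.22, and -2.58 and -0.57 against sham on the 2 days). Alas2 (chromosome X, 150547375 to 150570638) was 1026609 to 1796686 (median 1363778) in shams and 4074, 4514 and 7117 in irradiated mice on day 3. On day 5 it was 623575 to 1149369 (median 879582) in shams and 139119 to 387029 (median 268992) in irradiated mice. No irradiated library of either day reached a sham, and the median was 0.331% of that of the shams on day 3 and 30.6% on day 5. Alas2 rose between the days by 6.28 ± 0.52, adjusted p = 6.46e-15, and it was still lower on day 5 (-1.73 ± 0.33, adjusted p = 2.46e-05). Fech (1495, 1785 and 2390.4 on day 3, 42358 to 92621 (median 71115) on day 5) changed by 5.93 ± 0.58, adjusted p = 3.16e-12. The mitochondrial iron importer Slc25a37 changed by 5.45 ± 0.66, adjusted p = 4.55e-09, Tspo2 by 6.03 ± 0.60, adjusted p = 8.00e-12, Fam210b by 3.51 ± 0.55, adjusted p = 4.11e-06 and the decarboxylase Urod by 2.27 ± 0.53, adjusted p = 0.00485. Among these, Urod lost its call without the hepatocyte-rich libraries.

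The red cell membrane rests on a spectrin network tied to the anion exchanger Slc4a1 by ankyrin. Of 23 membrane and surface genes, 16 were called higher, with medians of -4.23 on day 3, -0.27 on day 5 and 3.79 for the difference. Slc4a1 (chromosome 11, 102348824 to 102366203) was 33012 to 73532 (median 53723) in shams and 535, 1087 and 1350.4 in irradiated mice on day 3, and 18828 to 33554 (median 27024) and 19587 to 38295 (median 32453) on day 5. The irradiated libraries of day 5 overlapped the shams of that day, and those of day 3 lay below every sham. The difference was 5.98 ± 0.66, adjusted p = 2.67e-10, and 6.86 without the hepatocyte-rich libraries. Trim10, a terminal erythroid differentiation factor in mouse cells, was 83.3, 139 and 178 in irradiated mice on day 3 and 3356 to 7547 (median 6174) on day 5, where shams were at 3596 to 6844 (median 4606). Its change was 6.201 ± 0.64, adjusted p = 2.40e-11. The ankyrin Ank1 (5.00 ± 0.63), the adducin Add2 (5.96 ± 0.63) and the surface protein Cd24a (4.10 ± 0.53) rose too. Cd24a is also carried by B cells and granulocytes.

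Late reticulocyte transcripts encode enzymes and degradation factors that act after the nucleus is lost. Of 28, 21 were called higher and 0 lower, with a median of 3.24, after -3.67 on day 3 and -0.83 on day 5. Bpgm, the enzyme making 2,3-bisphosphoglycerate (chromosome 6, 34476207 to 34505613), was 237687 to 455005 (median 340472) in shams and 1222, 1317 and 1727 in irradiated mice on day 3. On day 5 it was 147365 to 245364 (median 191490.2) and 40655 to 97620.3 (median 79989). The irradiated libraries stayed below every sham on both days, at medians of 0.387% and 41.8% of the shams. Bpgm changed by 6.48 ± 0.54, adjusted p = 1.21e-14, or 89.2-fold. Ube2l6, a ubiquitin-like conjugating enzyme, was 1369, 1559 and 2227 on day 3 and 23823 to 74212 (median 48056) on day 5, where shams were at 153008 to 232306 (median 192429.8), and its return was partial (-1.95 ± 0.32, adjusted p = 1.75e-06 against sham on day 5). Carbonic anhydrase Car2 was 484, 703 and 989 on day 3 and 11921 to 28066 (median 23169) on day 5, within the range of the shams of day 5 (21701 to 41433 (median 23657)) in part. Car2 changed by 5.77 ± 0.66, adjusted p = 7.61e-10, the poly(A) polymerase Tent5c by 5.66 ± 0.58, adjusted p = 1.84e-11 and the exonuclease Isg20 by 4.48 ± 0.53, adjusted p = 2.18e-09. The Mir451a row, chosen after its values were seen, counts reads at the hairpin gene and not the mature microRNA. It was 47.8 to 201 (median 156) in shams and 0, 1.05 and 1.28 in irradiated mice on day 3, and 60.6 to 137 (median 110.3) and 49.6 to 118 (median 75.7) on day 5. The difference was 5.83 ± 0.73, adjusted p = 8.56e-09, from low values on day 3. Its size depended on the pseudocount, from 3.30 with 10 to 7.44 with 0.1, and it was called in each of the 32 alternatives tried (other scalings, pseudocounts, filters, fits and sets of libraries).

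Most erythroid regulators were not called between the days. Of 13 erythroid transcription factors, 1 was called higher, Lmo2, a bridging protein of the GATA1 complex, at 248, 336 and 351 on day 3 and 1215 to 2531 (median 2275) on day 5, with shams at 5458 to 10856 (median 7857) and 3997 to 6573 (median 4702) (3.41 ± 0.52, adjusted p = 2.45e-06). Gata1, the leading erythroid and megakaryocyte factor, was instead above sham on both days, at 911, 975 and 1037 against 422 to 558 (median 474) on day 3 and 533 to 1126 (median 872) against 259 to 463 (median 337) on day 5. Its difference between days was 0.27 ± 0.40, adjusted p = 0.93. Klf1, the erythroid Krüppel-like factor, was 3.26, 9.88 and 18.7 in irradiated mice on day 3 against 11.4 to 83.1 (median 47.2) in shams, and 22.3 to 32.8 (median 25.8) against 33.1 to 65.3 (median 45.9) on day 5. Its groups overlapped on day 3, while on day 5 every irradiated library lay below every sham. Its difference between days was 1.26 ± 0.75, adjusted p = 0.741. Kmt5a, a histone H4 methyltransferase, had 0.87 ± 0.31, adjusted p = 0.222. Of 17 genes of stress erythropoiesis and iron uptake, 0 were called and 2 had an unadjusted p under 0.05 by limma, with a median of 0.10. The transferrin receptor Tfrc was 2158, 2882 and 3077 on day 3 against 6818 to 10182 (median 8338) in shams and 1929 to 5622 (median 4449) on day 5 against 4463 to 6609 (median 6212), so the groups overlapped on day 5 and not on day 3, and its difference was 1.03 ± 0.51, adjusted p = 0.623. The erythropoietin receptor Epor had 0.35 ± 0.57, adjusted p = 0.937 and the kinase Pim1 0.89 ± 0.33, adjusted p = 0.294.

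**Figure D3:**
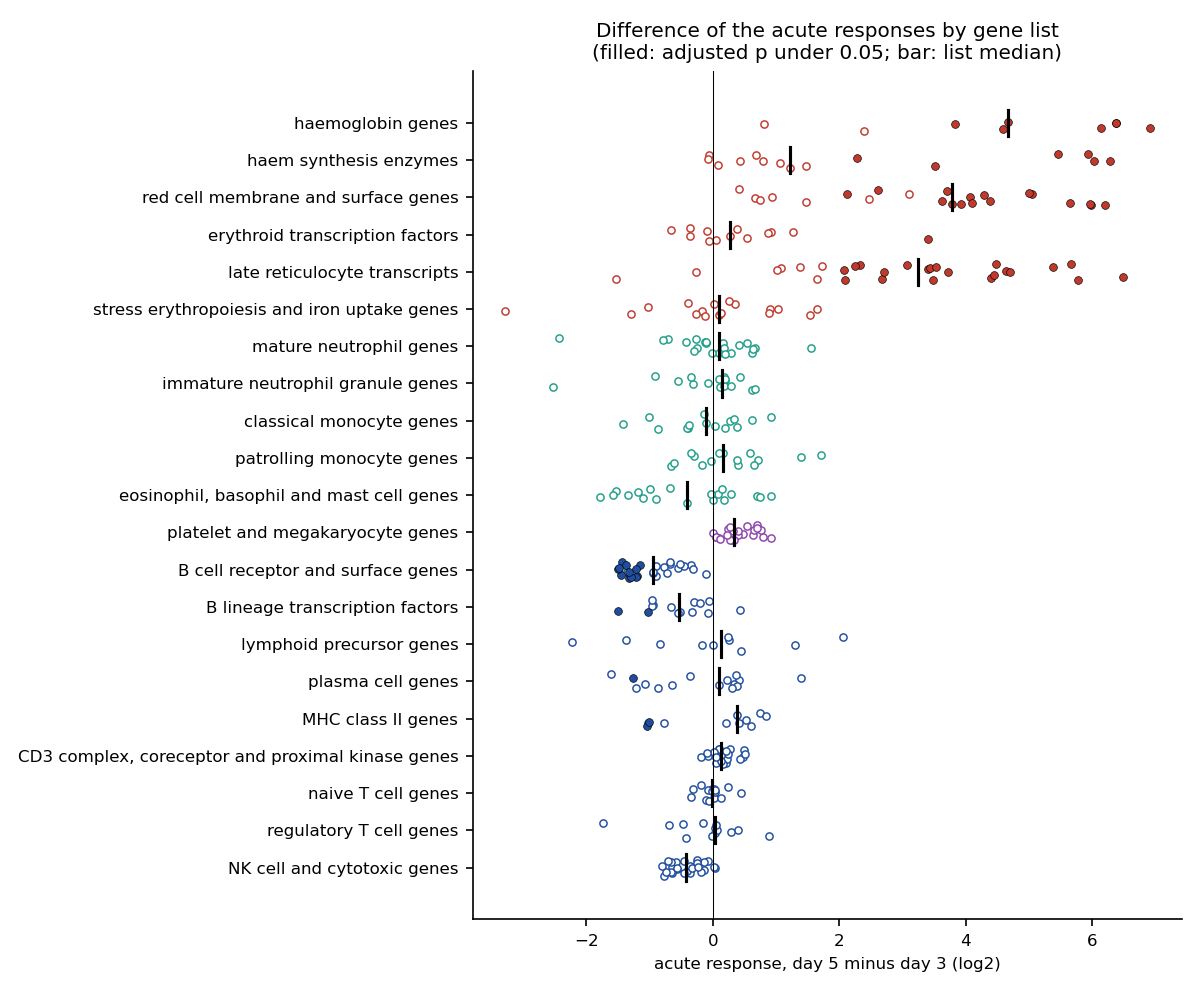
Difference of the acute responses, day 5 minus day 3 (x axis, log2), for each measured member of the blood lineage lists, filled where the adjusted p was under 0.05, with a bar at the list median. Erythroid lists (red) had 51 filled members to the right, and no myeloid (green) or platelet (purple) member was filled. Lymphoid lists (blue) had filled members to the left only, in the B cell, B transcription factor, plasma cell and MHC class II lists.

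Myeloid transcripts did not show a return at this threshold. Of 85 measured myeloid members, 0 were called in either direction by limma, 10 had an unadjusted p under 0.05 (5 higher and 5 lower), and the median difference was 0.04. Against sham, 14 were higher and 7 lower on day 3, and 19 higher and 10 lower on day 5. Of all genes, 11.8% were called higher and 8.72% lower on day 3, and 9.75% and 9.1% on day 5. These directions depended on the scale, as given for the lists below. The standard errors of the genes named here were 0.29 to 1.66, so changes of about 2-fold between the days were often not detectable with 3 irradiated libraries on day 3.

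Of 23 mature neutrophil genes, 5 were higher and 1 lower than sham on day 3, and 9 higher and 1 lower on day 5, with a median difference between days of 0.10 (of all genes, 11.8% were called higher and 8.72% lower on day 3, and 9.75% and 9.1% on day 5). With the values as deposited, 18 were higher on day 3 and 21 on day 5, and 0 lower on either. The calprotectin chain S100a8 was 2035 to 6306 (median 3288) in shams and 1375, 2175 and 5471 in irradiated mice on day 3, and 2068 to 4850.2 (median 3721) and 2559 to 9694 (median 3463) on day 5. All 4 groups overlapped (0.62 ± 0.62, adjusted p = 0.879), as did those of its partner S100a9 (0.54 ± 0.62, adjusted p = 0.904). The granulocyte colony-stimulating factor receptor Csf3r was 2932, 3394 and 6331 on day 3 against 2296 to 4331 (median 2730.1) in shams, and 2341 to 6925 (median 3947) on day 5 against 1810.4 to 3455 (median 3098), again with overlap (0.10 ± 0.38, adjusted p = 0.984). The members with the smallest p were the stefin Stfa2l1 (1.56 ± 0.64, adjusted p = 0.402) and the receptor Mrgpra2a (-2.43 ± 1.66, adjusted p = 0.791). Of 16 measured immature neutrophil granule genes, 2 were higher on day 3 and 5 higher and 1 lower on day 5 (with the values as deposited, of 17, 8 higher on day 3 and 8 higher and 1 lower on day 5). The lower gene, the protease inhibitor Serpinb1a, was 473, 788 and 933 in irradiated mice on day 3 and 276 to 406 (median 355) on day 5, against 932 to 1477 (median 1021) in the shams of day 5. Those day 5 groups did not overlap (-1.61 ± 0.22, adjusted p = 1.62e-08), while the difference between days was -0.91 ± 0.35, adjusted p = 0.325. The granule genes Prtn3 (-2.52 ± 1.62, adjusted p = 0.769), Mpo (-0.32 ± 1.42, adjusted p = 0.989), Ltf (0.44 ± 1.58, adjusted p = 0.983) and Camp (0.19 ± 1.55, adjusted p = 0.993) had wide errors, and Elane and Ms4a3 did not pass the filter on low values.

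Of 15 classical monocyte genes, 6 were higher and 1 lower on day 3 and 5 higher and 1 lower on day 5, with a median difference of -0.11. Of all genes, 11.8% were called higher and 8.72% lower on day 3, and 9.75% and 9.1% on day 5. With the values as deposited, 13 of the 15 were higher and 0 lower on each day. The chemokine receptor Ccr2, which draws monocytes out of the marrow, was 1499.9 to 2239.7 (median 1904) in shams and 3784, 3914 and 5183 in irradiated mice on day 3. On day 5 it was 1979 to 3704 (median 2687) and 4956 to 11980.2 (median 8064). Irradiated libraries were above all shams on both days, by 1.17 and 1.55, and the responses differed by 0.38 ± 0.36, adjusted p = 0.872. Ly6c2, a surface marker of classical monocytes, was 1904, 2085 and 2173 on day 3 and 1259 to 3307 (median 1874) on day 5 (-0.40 ± 0.36, adjusted p = 0.867). The smallest p belonged to Ly6a2 (-0.87 ± 0.61, adjusted p = 0.798) and the lipopolysaccharide co-receptor Cd14 (-1.02 ± 0.79, adjusted p = 0.833).

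Of 15 patrolling monocyte genes, 3 were lower on day 3 and 2 on day 5, with 0 higher, where 8.72% and 9.1% of all genes were called lower. With the values as deposited the direction turned, to 7 higher and 1 lower on day 3 and 11 higher and 0 lower on day 5. The scavenger receptor Cd36, also present on platelets and reticulocytes, came nearest to the threshold among myeloid members. It was 6952 to 15103 (median 11546) in shams and 1509, 1933 and 2699.6 in irradiated mice on day 3, and 5229.9 to 7733 (median 6188) and 2939 to 4963 (median 3776) on day 5. Its irradiated libraries lay below all shams on both days, with no overlap between the irradiated groups, and its difference was 1.72 ± 0.50, adjusted p = 0.0612. Cd36 passed the threshold after quantile normalization, with library weights, with only the acute groups in the fit and in 3 of the fits without 1 library, and its adjusted p ran from 4.50e-04 to 1 over the alternatives tried. The fractalkine receptor Cx3cr1 overlapped in all groups (0.39 ± 0.37, adjusted p = 0.876), and the adhesion receptor Adgre4 (0.65 ± 0.29, adjusted p = 0.533) and the receptor Csf1r (0.27 ± 0.35, adjusted p = 0.919) were not called. Of 19 eosinophil, basophil and mast cell genes, 1 was higher and 3 lower on day 3, and 2 higher and 6 lower on day 5, with a median of -0.41 between the days. Of all genes, 11.8% were called higher and 8.72% lower on day 3, and 9.75% and 9.1% on day 5. With the values as deposited, 5 of the 19 were higher and 0 lower on day 3, and 3 higher and 4 lower on day 5. The IgE receptor chain Ms4a2 was 19.1, 28.4 and 50.3 in irradiated mice on day 3 and 3.23 to 44.9 (median 8.30) on day 5, with shams at 21.9 to 181 (median 62.9) and 57.8 to 118 (median 87.0). It was lower on day 5 (-2.97 ± 0.45, adjusted p = 2.01e-07), but the change between the days was -1.79 ± 0.71, adjusted p = 0.368. Fcer1a, its partner chain, had -1.59 ± 0.70, adjusted p = 0.501 and the eosinophil granule protein Prg2 -1.34 ± 1.46, adjusted p = 0.894.

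The platelet list was raised on both days. All 23 measured members were higher than sham on day 3 (median 2.00) and on day 5 (median 2.30), where 11.8% and 9.75% of all genes were called higher. None was called between the days by limma, 2 had an unadjusted p under 0.05, and the differences ran from 0.01 to 0.93. In the shams alone, all 23 estimates from day 3 to day 5 were negative (median -0.50). Among the irradiated libraries alone, 15 were negative and 8 positive (median -0.13). No member was called in either. Platelet factor 4, Pf4, was 9105 to 13439 (median 10695) in shams and 19244, 23244 and 26434 in irradiated mice on day 3, and 6127 to 8543 (median 7938) and 21304 to 38708 (median 30331) on day 5. The integrin Itga2b, the fibrinogen receptor chain, was 62369.8, 72642 and 85332 on day 3 and 39534 to 73251 (median 62609.6) on day 5, against 10869.6 to 19341 (median 15129) and 8239 to 15559 (median 9978) in shams. Irradiated and sham libraries of these genes did not overlap on either day, while the irradiated libraries of the 2 days did. The differences were 0.93 ± 0.32, adjusted p = 0.196 for Pf4, 0.24 ± 0.41, adjusted p = 0.94 for Itga2b and 0.79 ± 0.39, adjusted p = 0.604 for the chemokine precursor Ppbp.

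**Figure D4:**
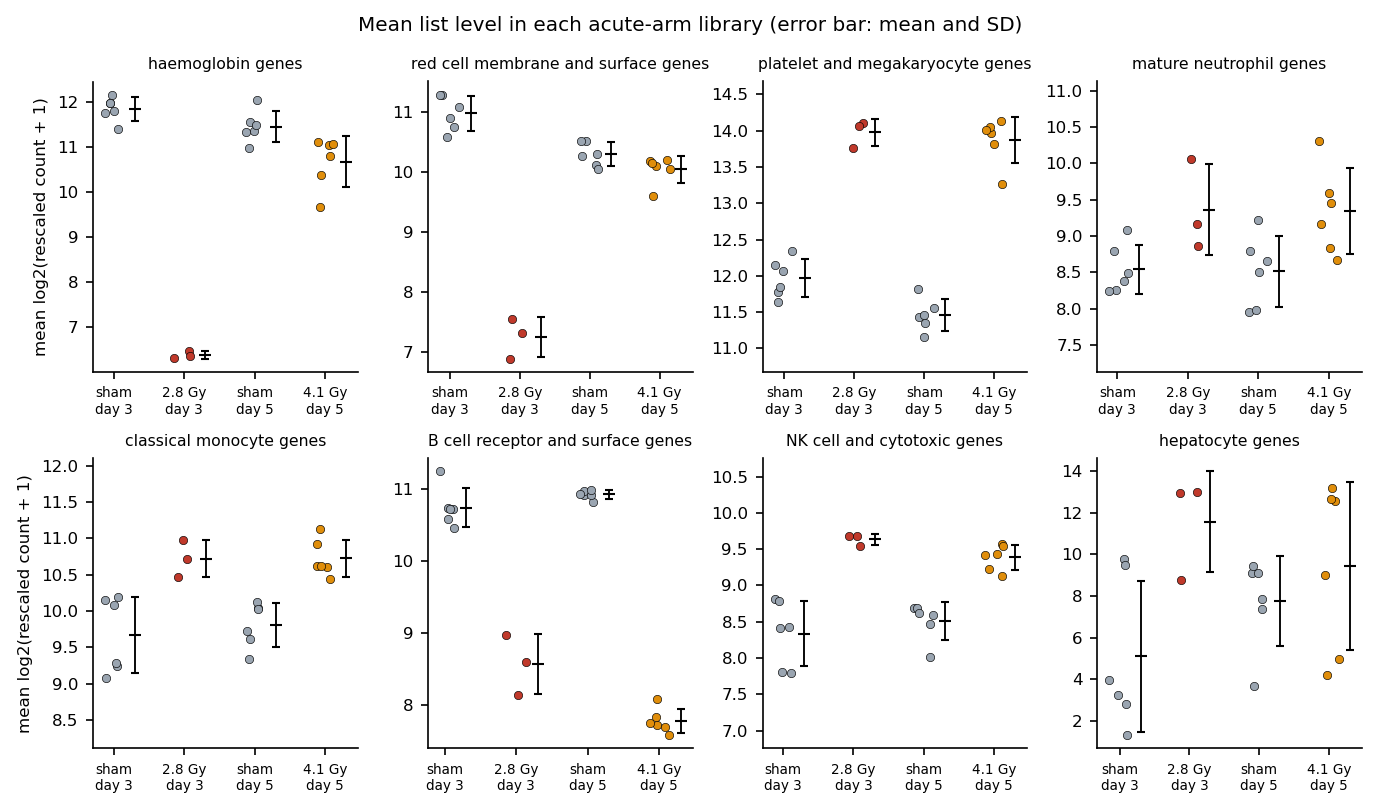
Mean of log2(rescaled count + 1) over 8 gene lists in each acute-arm library, with the mean and SD of each group beside its points. Haemoglobin and membrane lists were lowest in the irradiated libraries of day 3, B cell genes were lower on day 5 (7.58 to 8.09) than on day 3 (8.14 to 8.97), platelet genes were high on both days, and hepatocyte genes varied most within groups.

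Among lymphoid transcripts those of B cells kept falling relative to sham. Of 151 measured lymphoid members, 17 were called lower on day 5 relative to day 3 and 0 higher (11.3% against 0.142% of all genes), and 4 members up and 33 down had an unadjusted p under 0.05. All 17 belonged to the B cell, B transcription factor, plasma cell and MHC class II lists, and they were among the 22 genes that kept falling. The lower calls depended on single libraries: without the third irradiated library of day 3, which had the most B cell signal of its group and the least hepatocyte signal, 8 genes in all were called lower and 0 of the 27 B cell receptor and surface genes. Without the first, 9 genes and 6 of the B cell list were called lower. Without the second irradiated library of day 5, 15 genes and 7 of the list were called lower. The count of lower genes was 19 without the third irradiated library of day 5, 18 without the fifth sham of day 3 and 19 without the sixth sham of day 5.

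Of the 27 B cell receptor and surface genes, 12 were called lower between the days, and the differences of all 27 ran from -1.50 to -0.10 (median -0.95). Among the irradiated libraries alone 13 were called lower on day 5 (0.265% of all genes), with a median of -0.88. In the shams none was called, with a median of 0.14. Against sham, 25 were lower on day 3 (median -2.12) and 26 on day 5 (median -3.28), where 8.72% and 9.1% of all genes were called lower. With the values as deposited, 21 were lower and 2 higher on day 3, and 24 lower and 0 higher on day 5. The fit without the hepatocyte-rich libraries keeps only the third irradiated library of day 3 and so is no separate check of these calls. Cd79a, a signalling chain of the B cell receptor (chromosome 7, 24897381 to 24902197), was 2068 to 4208 (median 3074) in shams and 410.4, 548 and 757 in irradiated mice on day 3. On day 5 it was 2899.7 to 4059.6 (median 3552) and 194 to 357 (median 290.3). Every irradiated library of day 5 lay below those of day 3, which lay below all shams, at medians of 17.8% and 8.17% of the sham median. The difference was -1.21 ± 0.30, adjusted p = 0.00966, and -0.98 (adjusted p = 0.17 by limma) without the third irradiated library of day 3.

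Ighd, the heavy chain of the IgD of mature naive B cells (chromosome 12, 113406604 to 113416324), was 2441 to 5687 (median 3698) in shams and 202, 213 and 238 in irradiated mice on day 3. On day 5 it was 3763 to 4842 (median 4468) and 76.2 to 157 (median 119.9). It fell to 5.76% and then 2.68% of the sham median (-1.21 ± 0.34, adjusted p = 0.0372), and it was not called without any 1 of the 3 irradiated libraries of day 3 (adjusted p = 0.0726 to 0.165 by limma). Ighm, the heavy chain of IgM, was 4686, 5964 and 8814 on day 3 and 3767 to 4210.2 (median 3859) on day 5, and its difference was -0.78 ± 0.27, adjusted p = 0.207. The low-affinity IgE receptor Fcer2a, a marker of mature follicular B cells, was 33.9, 65.1 and 65.9 on day 3 and 15.04 to 44.4 (median 25.8) on day 5, against 1164 to 1407 (median 1307) in the shams of day 5. The irradiated groups overlapped and the difference was -1.46 ± 0.40, adjusted p = 0.0312, a call lost without the first or the third irradiated library of day 3. The lambda light chain constant gene Iglc2 (-1.50 ± 0.35, adjusted p = 0.00599), the adaptor Bank1 (-1.48 ± 0.32, adjusted p = 0.00224), the inhibitory receptor Cd22 (-1.44 ± 0.39, adjusted p = 0.0282), Fcrla (-1.38 ± 0.35, adjusted p = 0.0149), the follicle-homing receptor Cxcr5 (-1.33 ± 0.33, adjusted p = 0.0136), the kinase Blk (-1.30 ± 0.33, adjusted p = 0.0129) and CD20, encoded by Ms4a1 (-1.21 ± 0.34, adjusted p = 0.0435), fell as well. Of these, Ms4a1 lost its call in 17 of the 32 alternatives and Cd22 in 8, as did Ighd in 14 and Fcer2a in 10, while Fcrla lost it without the first or the third irradiated library of day 3, and Iglc2, Bank1, Cxcr5 and Blk without the third. Immunoglobulin constant genes share sequence with related genes, so their reads may be divided between copies.

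Of 14 B lineage transcription factors, 8 were lower on day 3 and 13 on day 5, where 8.72% and 9.1% of all genes were called lower. With the values as deposited, 6 and 7 were lower and 4 and 2 higher. Between the days 2 were called lower (0.142% of all genes), with a median of -0.54. Among the irradiated libraries alone the median was -0.17, with 8 estimates negative, 6 positive and 1 called lower (0.265% of all genes). In the shams all 14 estimates were positive (median 0.34) and none was called. Pax5, which holds B cell identity, was 1699 to 2433 (median 2125) in shams and 281, 389 and 537 in irradiated mice on day 3, and 2214 to 3974 (median 2772) and 128 to 364 (median 186) on day 5. The irradiated ranges of the 2 days overlapped, and the difference was -1.50 ± 0.42, adjusted p = 0.0409. The octamer coactivator Pou2af1 had -1.03 ± 0.28, adjusted p = 0.0332. Both lost the call without the first or the third irradiated library of day 3, and in 11 and 9 of the 32 alternatives in all. Of 15 plasma cell genes, 1 was lower, the chaperone Mzb1 (142, 212 and 328 on day 3, 84.8 to 109.7 (median 96.7) on day 5, -1.26 ± 0.36, adjusted p = 0.0433). Mzb1 too was not called without the first or the third irradiated library of day 3, and lost its call in 15 of the 32 alternatives in all. The joining chain Jchain of secreted IgM and IgA had 0.42 ± 0.50, adjusted p = 0.91. Of 10 measured lymphoid precursor genes 0 were called and 2 had an unadjusted p under 0.05, with Flt3 at 1.29 ± 0.46, adjusted p = 0.239, Vpreb1 at -2.23 ± 1.09, adjusted p = 0.602 and the recombinase Rag1 at -1.37 ± 1.32, adjusted p = 0.876.

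The MHC class II genes divided. Of 11, all were lower than sham on day 3 and 10 on day 5, where 8.72% and 9.1% of all genes were called lower. With the values as deposited, 9 were lower and 0 higher on day 3, and 7 lower and 1 higher on day 5. H2-Ob and H2-DMb2, chains of accessory molecules that tune peptide loading, fell further: H2-Ob was 337, 435 and 523 on day 3 and 179.6 to 315 (median 233) on day 5 (-1.01 ± 0.29, adjusted p = 0.0435). H2-DMb2 was 389, 489 and 748 on day 3 and 243 to 304 (median 269.5) on day 5 (-1.05 ± 0.28, adjusted p = 0.0309). Neither was called without the first or the third irradiated library of day 3, and the calls were lost in 16 and 6 of the 32 alternatives in all. The list median was 0.39, in the opposite direction. H2-Aa, a peptide-presenting chain found on B cells, monocytes and dendritic cells, was 11356 to 17463 (median 12036) in shams and 2608, 3365 and 4305 in irradiated mice on day 3, and 14133 to 16944 (median 14281) and 3460.2 to 8643 (median 5915) on day 5. The irradiated values overlapped between the days, and the difference was 0.60 ± 0.28, adjusted p = 0.543. The invariant chain Cd74 had 0.42 ± 0.26, adjusted p = 0.765. Among irradiated libraries alone, 3 members were called higher on day 5 and 2 lower, where 1.28% of all genes were called higher and 0.265% lower.

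T cell transcripts were not called between the days. Of 22 CD3 complex, coreceptor and proximal kinase genes 0 were called and 0 had an unadjusted p under 0.05 (median 0.13), of 15 naive T cell genes likewise 0 and 0 (median -0.01), and of 13 regulatory T cell genes 0 and 1 (median 0.04). Cd3e, a chain of the T cell receptor complex, was 209 to 555 (median 301) in shams and 430.3, 493.5 and 598 in irradiated mice on day 3, and 342 to 542 (median 439) and 512 to 997 (median 735) on day 5 (0.08 ± 0.40, adjusted p = 0.989). The groups overlapped on each day. Cd8a, the coreceptor of cytotoxic T cells, was lower than sham on both days (-0.99 ± 0.28, adjusted p = 0.00716 on day 3, -1.07 ± 0.23, adjusted p = 2.15e-04 on day 5), although its day 3 value was 0.028 with the values as deposited, with a difference of -0.08 ± 0.36, adjusted p = 0.989. Cd4 (0.22 ± 0.35, adjusted p = 0.938), the T cell factor Tcf7 (0.02 ± 0.32, adjusted p = 0.995), Themis (0.51 ± 0.39, adjusted p = 0.831), Cd3d (0.49 ± 0.39, adjusted p = 0.835), Klf2 (-0.34 ± 0.20, adjusted p = 0.741), Il7r (0.44 ± 0.34, adjusted p = 0.83), Capg (-0.70 ± 0.34, adjusted p = 0.594) and the regulatory T cell factor Foxp3 (-1.73 ± 0.97, adjusted p = 0.708) were not called.

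NK cell and cytotoxic genes were mostly above sham on both days. Of 26, 21 were called higher on day 3 (median 1.27) and 15 on day 5 (median 0.87), where 11.8% and 9.75% of all genes were. With the values as deposited, 25 and 24 were called higher. The differences between the days ran from -0.80 to 0.03, and 0 were called by limma or had an unadjusted p under 0.05. The activating receptor Ncr1 was 1181, 1364 and 1653 on day 3 and 609 to 1251 (median 956) on day 5, against 212 to 748 (median 471) and 268 to 573 (median 481) in shams. Its irradiated values lay above every sham of their day (-0.65 ± 0.46, adjusted p = 0.801). Granzyme A, Gzma, was 4137, 5317 and 6224 on day 3 and 2162 to 3839.6 (median 3339) on day 5 (-0.74 ± 0.50, adjusted p = 0.79). The receptor Klra7 had -0.78 ± 0.46, adjusted p = 0.741 and the factor Tbx21 -0.70 ± 0.43, adjusted p = 0.749.

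Other programmes differed in how many members were called. Of 30 p53 targets, genes switched on after DNA damage, 0 were called by limma and 0 had an unadjusted p under 0.05. The cell cycle inhibitor Cdkn1a was 260.4, 271 and 379.7 on day 3 and 110.1 to 264 (median 163) on day 5, above all shams (10.8 to 34.0 (median 19.99) and 1.14 to 56.0 (median 28.8)), with a difference of -0.90 ± 0.91, adjusted p = 0.881. Zmat3 had -0.90 ± 0.46, adjusted p = 0.652 and Rps27l -0.76 ± 0.39, adjusted p = 0.659. Of 34 cell cycle genes, 2 were called higher, where 1.52% of all genes were: the spindle protein Nusap1, at 401, 425 and 501 on day 3 and 2089.8 to 4801 (median 3441) on day 5 (3.84 ± 0.59, adjusted p = 2.78e-06), and the cyclin Ccna2, at 310.1, 321 and 350.1 and 701 to 1054 (median 879) (2.25 ± 0.55, adjusted p = 0.0105). Both had been called lower than sham on day 3 and had returned toward sham. Ccna2 lost its call without the hepatocyte-rich libraries, and Mki67 had 1.12 ± 0.44, adjusted p = 0.353. Of 29 interferon-stimulated genes, 4 were called higher, against 1.52% of all genes, and the list median was -0.18. All 4 had been called lower than sham on day 3 and had returned toward sham. These were the antiviral enzyme Rsad2, at 2325, 2505 and 2913 on day 3 and 28226 to 52589.5 (median 42775) on day 5 (4.93 ± 0.56, adjusted p = 4.69e-10), the ubiquitin-like Isg15 (3.78 ± 0.57, adjusted p = 1.46e-06), Oas3 (2.51 ± 0.48, adjusted p = 2.38e-04) and the factor Irf7 (1.82 ± 0.43, adjusted p = 0.00703). Of 42 ribosomal protein genes, 38 were lower on day 3 and 39 on day 5, where 8.72% and 9.1% of all genes were called lower. With the values as deposited, 4 were lower and 10 higher on day 3, and 0 lower and 9 higher on day 5. Between the days 1, Rpl41, was called higher (1.87 ± 0.47, adjusted p = 0.0121), against 1.52% of all genes, while Rplp2 had 0.75 ± 0.30, adjusted p = 0.38. None of the 25 hepatocyte genes was called between the days by limma and 6 had an unadjusted p under 0.05, with Serpina1d at -6.04 ± 2.93, adjusted p = 0.601 and Serpina1a at -6.15 ± 3.00, adjusted p = 0.606. Nor was any of the 7 lung, 11 muscle or 3 skin genes that passed the filter, of which 0 had an unadjusted p under 0.05. Their smallest p belonged to Hopx (-0.40 ± 0.29) and Sftpb (1.52 ± 1.14), Myh6 (3.40 ± 2.17) and Tnni3 (-1.75 ± 1.40), and Sbsn (-2.44 ± 1.42) and Krt10 (-1.64 ± 1.19).

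Outside the lists, 264 of the 322 genes called higher belonged to none of them. Among the 10 greatest differences were the apolipoprotein L gene Apol11b, the neuronal autoantigen Cdr2 (6.19 ± 0.56, adjusted p = 3.98e-13) and the oligoadenylate synthetase-like Oas1e (6.07 ± 0.98, adjusted p = 6.09e-06). Apol11b was 10562 to 33960.4 (median 16433) in shams and 306, 398 and 679 in irradiated mice on day 3, and 6321 to 17039 (median 10726) and 16876 to 36739 (median 27162) on day 5. It had reversed, from below every sham on day 3 (-5.35 ± 0.50, adjusted p = 9.45e-14) to higher than sham on day 5 (1.39 ± 0.41, adjusted p = 0.00954), where the ranges just overlapped, with a difference of 6.74 ± 0.65, adjusted p = 3.27e-12. Other genes among the 8 that reversed, named after their values were seen, were Apol10a (5.71), Apol10c-ps (6.80), Cox6b2 (4.67), Pitrm1 (1.90), Rbbp4 (1.39) and Pbrm1 (1.15). Rbbp4 and Pbrm1 were not below sham on day 3 with the values as deposited (0.21 and 0.38). Apol genes lie in a cluster of related sequences, and reads may be divided among them. The actin-severing protein Dstn kept rising, at 6006, 7599.8 and 7889.7 on day 3 and 7747 to 16229 (median 10946) on day 5, where the ranges overlapped (1.07 ± 0.28, adjusted p = 0.0229), and its call was lost in 3 of the 32 alternatives. Among lower calls outside the lists, Rps27rt (-7.87 ± 2.23) is named as a retrogene copy, so its level is uncertain, Adarb2 had -2.37 ± 0.64, adjusted p = 0.0312, and Cobll1 had -1.96 ± 0.51, adjusted p = 0.0218. Their calls were lost in 21, 11 and 8 of the 32 alternatives, in that order, and the value of Rps27rt ran from -12.31 to -3.60.

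The change between days was also compared with that in the VarDR arm, which has separate shams. In VarDR, 88 genes (0.417%) were called between the days, 71 higher (0.336%) and 17 lower (0.0805%), and none of the 105 erythroid members, whose median difference was 1.11. An unadjusted p under 0.05 by limma was reached by 5 of 9 haemoglobin, 10 of 15 haem synthesis, 14 of 23 membrane and 25 of 28 late reticulocyte genes. It was reached by 5 of 13 erythroid transcription factors, 2 of 17 stress erythropoiesis genes and 2757 of all 21124 genes. The lack of calls thus does not show that the erythroid genes were unchanged in VarDR. Of all genes, 51 (0.241%) differed between the arms, 44 higher in the acute arm (0.208%) and 7 lower (0.0331%). Of the 51, 23 were erythroid list members, all of them higher in the acute arm. The count of 51 was 27 without the second irradiated library of the acute arm on day 3, 31 without the third and 118 after quantile normalization.

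Liver transcripts also varied in the VarDR arm. Hepatocyte genes held 0.0168 to 2.99% of the signal in its shams of day 3, 0.0255 to 2.55% in its irradiated libraries of day 3, 0.0130 to 4.63% in the shams of day 5 and 0.0915 to 3.68% in the irradiated libraries of day 5. Over 0.5% was reached by 2 of 6 shams and 2 of 6 irradiated libraries of day 3, and by 3 and 4 of 6 on day 5. Without the 5 such libraries of the acute arm 24 genes differed between the arms. Without those of both arms, an alternative chosen after the data were seen, 25 did, 21 of them among the 51, and VarDR had 1 call between the days in place of 88. Of the haemoglobin, haem synthesis, membrane and late reticulocyte genes, 5, 3, 2 and 3 were then called higher in the acute arm (6, 4, 6 and 7 with all libraries). That fit again keeps 1 irradiated library of day 3 in the acute arm.

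Alas2 in VarDR was 984493 to 3146201 (median 1802925) in shams and 265508 to 1082007 (median 705776) in irradiated mice on day 3, and 594172 to 1176266 (median 967757) and 267289 to 1392072 (median 888568) on day 5. Its ranges overlapped on both days, and its change was 1.46 ± 0.46, adjusted p = 0.117. The acute change exceeded it by 4.82 ± 0.69, adjusted p = 1.37e-05. The same test gave 5.30 ± 0.86, adjusted p = 1.48e-04 for Hba-a1, 5.27 ± 0.94, adjusted p = 6.88e-04 for Hbb-bt, 5.31 ± 0.73, adjusted p = 7.16e-06 for Bpgm, 4.59 ± 0.88, adjusted p = 0.00261 for Slc4a1 and 4.71 ± 0.98, adjusted p = 0.00831 for Mir451a. Without the hepatocyte-rich libraries of both arms the difference was 5.75 for Alas2 (adjusted p = 0.00384) and 6.63 for Hbb-bt (adjusted p = 0.0126), and that of Mir451a was no longer called (5.15, adjusted p = 0.155). With a pseudocount of 10 the Mir451a difference between the arms was 2.20 (adjusted p = 0.536).

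B cell genes were not shown to differ between the arms. None of the 27 B cell receptor and surface genes was called by limma, 2 had an unadjusted p under 0.05, and the median difference between the arms was -0.25. Cd79a in VarDR was 1626 to 2890.1 (median 2038) in shams and 840.1 to 1807 (median 1257) in irradiated mice on day 3, and 2411 to 3368 (median 2798) and 709 to 952 (median 858) on day 5. It fell between the days there too (-1.03 ± 0.26, adjusted p = 0.0499), and the arms differed by -0.17 ± 0.40, adjusted p = 0.93. A p above the threshold does not show that the arms were alike.

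**Figure D5:**
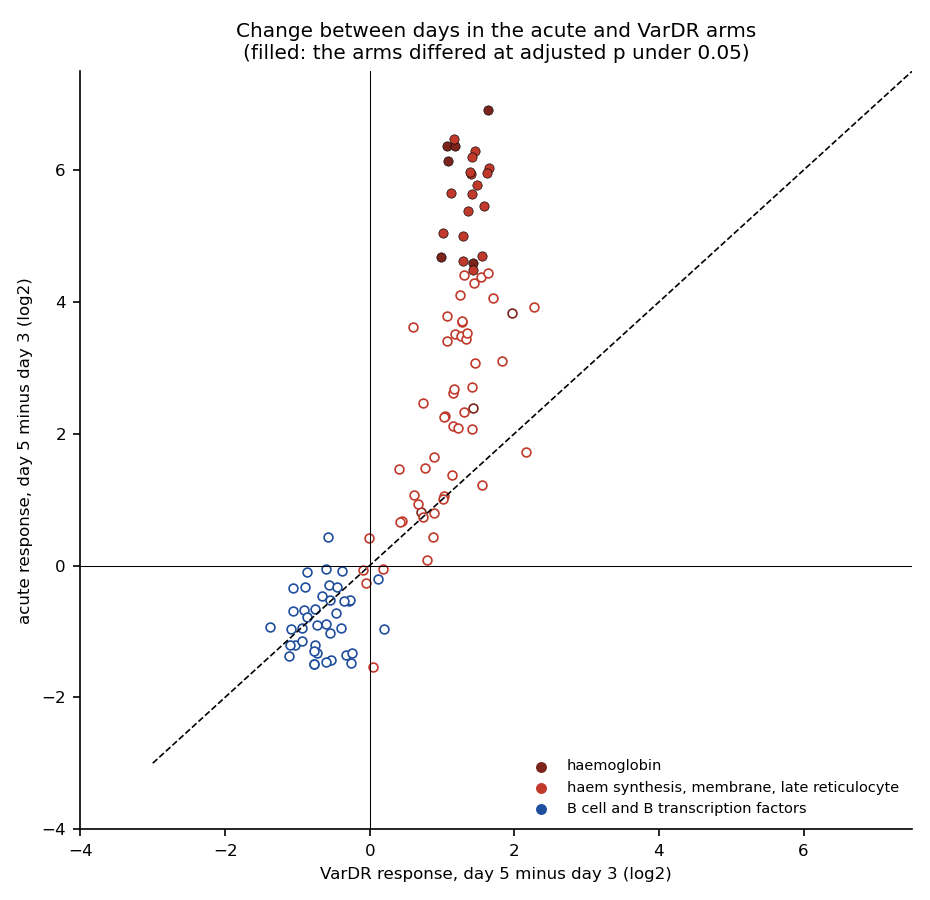
Change of the response between days in the VarDR arm (x axis) and the acute arm (y axis), log2, for erythroid and B cell list members, filled where the 2 arms differed at an adjusted p under 0.05, with the line of equal change dashed. The 23 filled points are erythroid and lie above the line, and B cell genes lie around it.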

How the data were processed

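Stranded total RNA libraries had been made from PAXgene whole blood after globin clearance and ribosomal depletion, per the labels' protocols. The authors deposited 1 table of signal, that is normalized read counts per gene with non-whole values; bcl2fastq 2.19, kallisto 0.44.0, sleuth, DESeq2 and the GRCm38 build appear in the submitters' processing notes, with no role or order. The sheet is titled for lung, but its column names match the blood labels. Of 82 columns, 80 were matched and 2 were not used. The 26 rows with dates for names were dropped (at most 0.471% of a total), leaving 50365, of which 49949 symbols are in GENCODE M21.

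Whole reads could not be recovered: 1.86 to 55.0% of low values (under 50 steps) were whole multiples of a column's step within 0.01, so count models were not used and depth is known only through the column totals. In units of 1000000, the deposited columns of day 3 summed to 23.2 to 25.6 in irradiated libraries and 25.1 to 31.0 in shams. Those of day 5 summed to 27.6 to 37.9 and 23.2 to 33.0. Over genes with no 0 value, however, the typical ratio of irradiated to sham libraries was 2.02 on day 3 and 1.93 on day 5. Each column was therefore divided by its median ratio to the geometric mean of the columns, taken across 11349 genes with no 0 value, which treats the typical gene as unchanged.

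A gene was kept if 3 or more libraries reached a value of 10. limma 3.58.1 (R 4.3.3) fitted log2(value + 1) with 1 mean for each of 14 groups and 80 libraries, a trended and robust prior, and Benjamini-Hochberg adjustment over all genes. The method was tested on simulated data. Figures used matplotlib 3.10.9 and tables Python 3.11.15 with pandas 2.3.3 and numpy 2.4.6.

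Genes are named by rule: the 10 highest and 10 lowest called differences without predicted genes, pseudogenes or receptor segments; of each of 29 lists (562 entries) up to 6 called members by smallest p, or the 2 smallest where fewer than 2 passed; and fixed reference genes. The members and lists were chosen with earlier results of these data known. Others are marked as chosen after their values were seen, and some genes named by the rule are not reported here. Replicate numbers follow accession order and pair nothing.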

Additional observations from a re-analysis of the deposited data

Results flagged for a closer look

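Some values stood far from the other libraries of their group. In 72 sets of levels tested, the gap of the extreme library to its neighbour was unusually large in 5, and chance gives about 1 in 20. The highest irradiated library of day 5 had 9694 rescaled counts of S100a8. The highest shams of H2-Aa were 17463 on day 3 and 16944 on day 5, and the highest sham of Cd74 on day 3 was 39892. The lowest irradiated library of day 5 had 2162 of Gzma.

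The acute response differed between day 3 and day 5, by a test of the difference itself, in 352 genes. Among them the log2 difference (day 5 minus day 3) was 6.28 for Alas2, 6.37 for Hba-a1, 6.91 for Hbb-bt, 6.48 for Bpgm, 5.98 for Slc4a1, 5.83 for Mir451a and 6.74 for Apol11b. The value of Mir451a ran from 3.30 to 7.44 with the pseudocount. The difference was -1.21 for Cd79a, -1.21 for Ighd, -1.46 for Fcer2a, -1.50 for Pax5 and -1.01 for H2-Ob.

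The change between days differed between the acute and the VarDR arm in 51 genes. The acute change was the greater by 4.82 for Alas2, 5.30 for Hba-a1, 5.27 for Hbb-bt, 5.31 for Bpgm, 4.59 for Slc4a1, 4.71 for Mir451a and 4.63 for Apol11b. With a pseudocount of 10 that of Mir451a was 2.20 and not called (adjusted p = 0.536 by limma).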

How the results depend on the processing

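Of the 75 named genes called between the days, 36 stayed called under every alternative that could test them, 39 lost the call in at least 1 and 0 changed sign. The 352 calls between days (322 higher, 30 lower) became 567 without a filter (248 lower), 603 with only the 4 acute groups in the fit (563 higher), 826 with library weights (669 higher, 157 lower) and 186 without libraries over 0.5% hepatocyte signal (165 higher), and 61 were lower after quantile normalization. Calls against sham were 12398 on day 3 and 10598 on day 5 with the values as deposited, 7995 and 6507 with library weights, and 1403 on day 3 without the hepatocyte-rich libraries. VarDR calls were 32 after quantile normalization, 43 without a filter and 151 with weights. Calls between the arms were 118, 105 and 77 under these, and 24 without the hepatocyte-rich libraries of the acute arm. Without those of both arms, chosen after seeing the data, they were 25, and VarDR had 1. Leaving out 1 library gave 248 to 377 calls between days (240 to 347 higher, 8 to 35 lower), 2628 to 4621 on day 3, 3509 to 4048 on day 5 and 27 to 60 between the arms. The lower calls were 9, 8, 15, 19, 18 and 19 without, in turn, the first and the third irradiated libraries of day 3, the second and the third of day 5, the fifth sham of day 3 and the sixth of day 5. The causes were not tested.

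With the values as deposited the median difference of days moved from -0.19 to -0.25. The day 3 difference from sham changed sign for genes that included Pim1 (0.21), Adgre4 (0.36), Mzb1 (0.14), Themis (0.78), Klf2 (0.56), Cx3cr1 (0.77), Cd8a (0.028), Tcf7 (0.71), Pbrm1 (0.38), Rbbp4 (0.21), Ric8b (0.68), Nars (0.71) and Eloa (0.79). The day 5 difference did so for genes that included Kmt5a (0.34), Adgre4 (0.94), Klf2 (0.16), Il7r (0.77), Capg (0.56) and Tcf7 (0.67). No paired analysis was possible because the labels give no replicate numbers. With 3 irradiated libraries on day 3, small changes between the days are the least certain.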

Other observations

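Of the 14 genes called on day 5 and not on day 3, several encode mitochondrial respiratory chain proteins: Ndufa1 (0.93 ± 0.23, adjusted p = 0.00126), Ndufa3 (0.72 ± 0.20, adjusted p = 0.00494) and Cox7a2 (0.74 ± 0.23, adjusted p = 0.0139) were higher than sham on day 5. Rexo2, a mitochondrial exonuclease, was higher too (1.13 ± 0.22, adjusted p = 2.70e-05). Hsd3b6 (2.46 ± 0.58, adjusted p = 7.56e-04), Ankrd36 (3.27 ± 0.75, adjusted p = 5.27e-04) and Eloa (0.57 ± 0.14, adjusted p = 0.0018) had the same direction, as did Ric8b (0.39 ± 0.13, adjusted p = 0.0224) and Nars (0.49 ± 0.14, adjusted p = 0.00583). These genes were chosen after their values were seen, and no list of them was tested. Their change between the days lost its call in 22 of the 32 alternatives for Eloa, 18 for Ric8b, 15 for Nars and 13 for Hsd3b6. For Ndufa1, Ndufa3, Cox7a2, Ankrd36 and Rexo2 it was lost in 3, 1, 2, 2 and 0. With the values as deposited, Ric8b, Nars and Eloa were already called higher than sham on day 3 (0.68, 0.71 and 0.79). After rescaling, Ndufa1 (-0.51), Ndufa3 (-0.60), Cox7a2 (-0.73) and Rexo2 (-0.60) lay below sham on day 3. These differences were smaller than the 2.02-fold excess of the typical gene in the deposited values of that day. Their side of sham on day 3 therefore depended on the scale too. Fth1, the ferritin heavy chain, changed between the days (1.32 ± 0.37, adjusted p = 0.0435) without a call on either day, and lost the call in 21 of the 32 alternatives (0.45 to 1.43).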
